A study of Mus musculus with 8 samples.

Results

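S100 genes encode small calcium-binding proteins. The 8 members of this family described here, S100a4, S100a6, S100a10, S100a11, S100a13, S100a1, S100a8 and S100a9, were followed in mouse CD4 T cells cultured toward the Th17 fate. The set was chosen by measured values of these arrays: S100a4 and S100a6 were picked because they separated loss of RORγt from exposure to digoxin, and because they lie on the chromosome of the targeted gene. For genes on that chromosome, an effect of RORγt loss and an effect of DNA flanking the targeted allele cannot be told apart by these groups. The other members were added by family name. Of the 8 genes, 7 had at least 1 probe set that the array annotation assigns to them alone, among 18193 genes measured in this way. The only probe set listed for S100a11 also carries the symbols of a predicted gene and an S100a11 pseudogene, so no value is given for S100a11.

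RNA was measured on 8 Affymetrix whole-genome mouse arrays, 2 for each of 4 groups. Naive CD4 T cells of C57BL/6 mice were isolated by flow sorting, stimulated through CD3 and CD28, and grown for 48 h under conditions that favour Th17 cells. They were wildtype or carried a deficiency of RORγt, a nuclear receptor required for Th17 differentiation and for transcription of Il17a. Cells of each genotype received DMSO, the solvent, or digoxin, a glycoside that blocks the sodium pump and that the series' title describes as an antagonist of RORγt. Not given in the sources used here are the digoxin dose, the allele behind the deficiency and the animals behind each array. Arrays of a group are titled biological replicates, but separate animals or cultures are not stated, so p-values reflect array-to-array spread that may be technical. Whether digoxin moves each S100 gene in the way that loss of RORγt does is the question the 4 groups address.

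Most S100 proteins form dimers that change shape when calcium binds and then dock onto target proteins inside the cell. S100A4 binds non-muscle myosin and is known in motile and memory T cells, and S100A6 binds the adaptor CacyBP and annexins. S100A10 no longer senses calcium and works in a complex with annexin A2 at membranes. S100A11 also partners with annexins, S100A13 takes part in unconventional secretion, and S100A1 is best known in muscle. S100A8 and S100A9 pair as calprotectin, a major product of neutrophils and monocytes that signals through TLR4 and RAGE when released.

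In mice, S100a4 and S100a6 lie close together in the S100 cluster on chromosome 3. Their promoter windows are shown because these are the members with the largest genotype differences. Each window is RefSeq sequence of build GRCm38.p6, plus strand, from 250 bases before the annotated start to 50 after it. The S100a4 window is chr3:90603520-90603819, and the S100a6 window is chr3:90612644-90612943. Capitals mark matches on either strand to AGGTCA, the nuclear receptor half-site, TGACTCA, the AP-1 site, or TATAAA, the TATA box.
S100a4: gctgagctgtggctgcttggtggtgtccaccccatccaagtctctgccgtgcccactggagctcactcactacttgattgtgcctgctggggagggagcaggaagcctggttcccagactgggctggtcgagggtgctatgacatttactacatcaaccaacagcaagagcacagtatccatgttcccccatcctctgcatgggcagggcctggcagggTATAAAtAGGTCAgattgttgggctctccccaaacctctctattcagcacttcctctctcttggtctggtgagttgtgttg
S100a6: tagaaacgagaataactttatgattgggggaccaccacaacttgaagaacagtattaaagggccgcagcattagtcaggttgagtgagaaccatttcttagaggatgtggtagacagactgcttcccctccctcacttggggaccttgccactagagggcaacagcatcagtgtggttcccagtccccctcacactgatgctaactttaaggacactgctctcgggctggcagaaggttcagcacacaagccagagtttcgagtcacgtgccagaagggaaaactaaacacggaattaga
In S100a4, TATAAA begins 31 bases before the start and AGGTCA begins 24 bases before it, 1 base after the TATA match. The S100a6 window holds none of the 3 strings. Among 32851 promoter windows of this length, 16.3% held AGGTCA, 5.2% held TGACTCA and 13.6% held TATAAA. A match is a description of the letters and not evidence of binding. Windows were found for 7 of the 8 members, and the exception was S100a10. The S100a8 window has TATAAA 30 bases before the start. The S100a9 window has TATAAA at the annotated start itself. That of S100a11 has TGACTCA at 136 and 38 bases before it and AGGTCA at 243. S100a1 and S100a13 are read in opposite directions from overlapping windows.

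The deposited values are log2 values expressed relative to the 2 wildtype DMSO arrays' mean. Hence a value of 1 is a 2-fold higher signal and signals of different genes cannot be compared. The rounding of each number still shows the range of the lowest log2 signal before that step. It lay between 2 and 4 for 31.1% of genes, between 4 and 8 for 48%, and at 8 or above for 20.8%. Cd4 and Cd3e were at 8 or above, as were 9 of the 10 measured CD4 T cell genes, and none of 7 CD8 T cell and NK markers or of 5 B cell markers was. The RORγt gene itself was not analysed here. Array medians ran from -0.01 to 0.03, and the median difference of all genes lay between -0.01 and 0.02 in every comparison.

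S100a4 was higher in RORγt-deficient cells than in wildtype cells, with or without digoxin, and lowest in wildtype cells given digoxin. The wildtype DMSO arrays read -0.12 and 0.12, and the wildtype digoxin arrays -0.63 and -0.20. The RORγt-deficient arrays read 1.32 and 1.18 in DMSO and 1.13 and 0.76 under digoxin. All 4 arrays of deficient cells therefore lay above all 4 wildtype arrays, and both wildtype digoxin arrays lay below both wildtype DMSO arrays. The lowest signal of S100a4 lay between 4 and 8, as for 48% of genes. That range also held 4 of 7 CD8 T cell and NK markers and 2 of 5 B cell markers.

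In DMSO, S100a4 differed by 1.25 ± 0.17 on the log2 scale between the genotypes (limma standard error), a 2.38-fold higher signal in deficient cells. This was the 7th highest difference among 18193 genes. In wildtype cells the digoxin minus DMSO difference was -0.42 ± 0.17, a 1.34-fold lower signal, and it read -0.20 without the first wildtype digoxin array and -0.63 without the second. Set directly against each other, deficient cells in DMSO exceeded wildtype cells under digoxin by 1.67 ± 0.17, or 3.18-fold. These comparisons chose the gene and carry no test. The SDs of the 2 arrays of a group were 0.17 in wildtype DMSO, 0.30 in wildtype digoxin, 0.10 in deficient DMSO and 0.26 in deficient digoxin.

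S100a6 separated the genotypes as widely, but its wildtype digoxin arrays lay above those in DMSO. Wildtype arrays read 0.01 and -0.01 in DMSO and 0.51 and 0.12 under digoxin. Deficient arrays read 1.67 and 1.49 in DMSO and 1.56 and 1.46 under digoxin. No wildtype array reached the lowest of the deficient arrays, and the deficient arrays overlapped between DMSO and digoxin. Its lowest signal also lay between 4 and 8.

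The genotype difference of S100a6 in DMSO was 1.58 ± 0.14, a 3-fold higher signal and the 3rd highest difference of all genes. Digoxin minus DMSO in wildtype cells was 0.32 ± 0.14, or 1.25-fold higher, and read 0.12 without the first wildtype digoxin array and 0.51 without the second. Deficient cells in DMSO exceeded wildtype cells under digoxin by 1.27 ± 0.14, or 2.41-fold. In that direct comparison S100a4 ranked 1st and S100a6 ranked 2nd of 18193 genes, a pattern the choice of genes fixes. In wildtype cells the mean under digoxin thus lay below DMSO for S100a4 and above it for S100a6, while deficient cells read higher than wildtype for both.

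**Figure D1:**
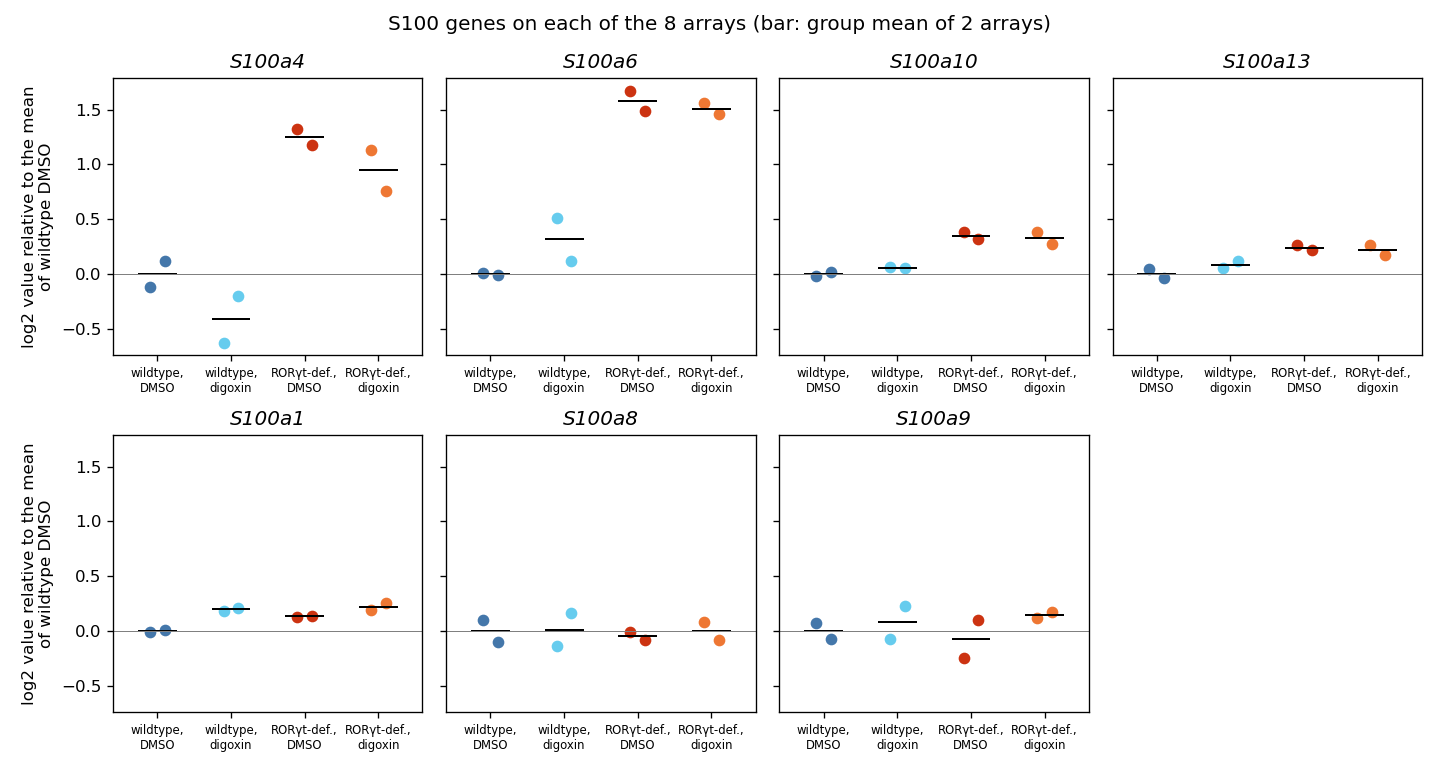
Log2 value of each measured S100 gene relative to the wildtype DMSO mean (y axis) on the 8 arrays by group (x axis). Points are arrays and bars are group means of 2 arrays. S100a4 and S100a6 read at least 0.76 on all deficient arrays and at most 0.51 on all wildtype arrays, and the other genes read at most 0.38.

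The genotype difference under digoxin shares no array with that in DMSO. It is not a fresh test of S100a4 and S100a6, since its wildtype arrays took part in choosing them and earlier results of all groups were known. Their ranks and p-values here are descriptions. S100a4 was 1.36 ± 0.17 higher in deficient cells, or 2.58-fold, and S100a6 was 1.19 ± 0.14 higher, or 2.29-fold. They were the 1st and 2nd highest differences of 18193 genes. Neither passed the limma test at an adjusted p of 0.05: the adjusted p was 0.0633 for S100a4 and 0.0618 for S100a6. Over 17 alternatives it ran from 0.059 to 1 for S100a4 and from 0.0241 to 1 for S100a6. The limma adjusted p of S100a6 read 0.0364 with the mean of all probe sets of a gene, which is likewise a description and not a test. Without the first wildtype digoxin array the S100a6 difference was 1.39.

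Few genes were called in these comparisons, which sets the scale for the S100 counts. Quantile normalisation, given below as an alternative, was run on values already normalised by RMA and centred on wildtype DMSO. It gives all arrays a common distribution. Before it, the SD over genes was 0.09 on the wildtype DMSO arrays and 0.17 to 0.28 on the others. Under digoxin, limma called 0.0055% of genes between the genotypes, the single gene Il17a, and 0 of the 7 S100 genes. Il17a, the signature Th17 cytokine, was lower by -1.60 ± 0.12 (limma adjusted p = 0.00299). Its call was lost without the second deficient digoxin array (-1.47, adjusted p = 0.0982) and after quantile normalisation (-0.52, adjusted p = 1). Of all genes, 5.51% had an unadjusted p under 0.05, and of the 5 members added by family name S100a10 alone did. No such share of all genes is given for the genotype difference in DMSO. There, 98 of 913 measured genes of chromosome 3 had an unadjusted p under 0.05. Unadjusted counts in DMSO given for the lists below thus have no share of all genes beside them. In DMSO, 1.05% of all genes were called between the genotypes, 51 higher and 140 lower, and S100 counts there are descriptive only. The calls fell to 1 higher and 2 lower after quantile normalisation and to 9 and 8 without the second wildtype DMSO array. Arrays of deficient cells lay wholly above those of wildtype cells for 5 of 7 S100 genes in DMSO, against 20.1% of all genes. They did so for 4 of 7 under digoxin, against 17.4%. The 4 were S100a4, S100a6, S100a10 and S100a13, and in DMSO S100a1 joined them. S100a4 and S100a6 were chosen by their values, with the wildtype arrays of both treatments, so neither count is a test.

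**Figure D2:**
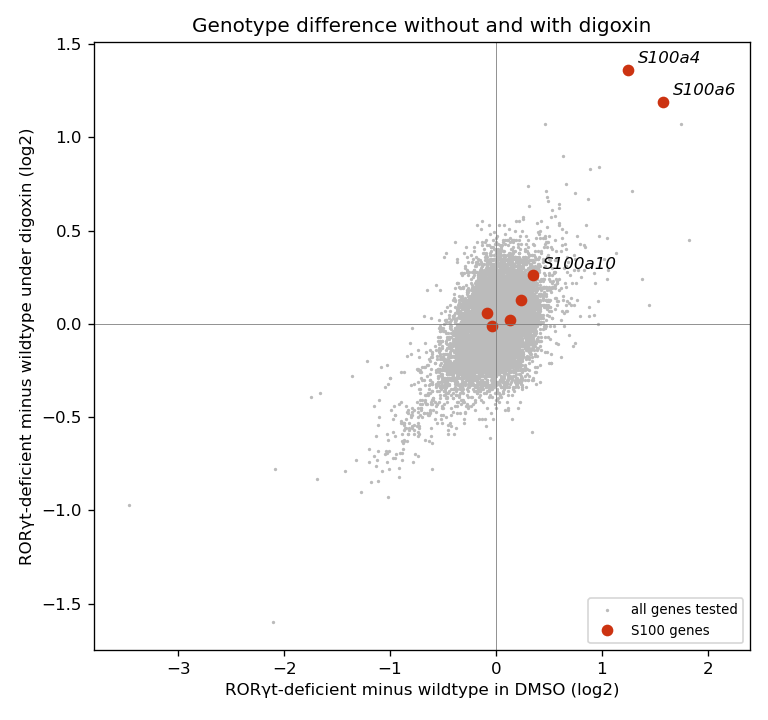
RORγt-deficient minus wildtype difference in DMSO (x axis) and under digoxin (y axis), log2, for all 18193 genes (grey) and the 7 measured S100 genes (red). The axes share no array. S100a4 (1.25 and 1.36) and S100a6 (1.58 and 1.19) lie at the upper right, S100a10 (0.35 and 0.26) nearer the centre.

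Digoxin in RORγt-deficient cells gave no call for any S100 gene added by family name. Digoxin minus DMSO was -0.31 ± 0.17 for S100a4 and -0.07 ± 0.14 for S100a6. The deficient DMSO arrays had served to choose both for high values, which can lower these differences, so no p is given for them. S100a4 read -0.12 without the second deficient digoxin array and -0.49 without the first. Both deficient arrays under digoxin read below both in DMSO for S100a4. Of the members added by family name, 0 were called, against 0.0055% of all genes, and 0 had an unadjusted p under 0.05, against 3.51%. Arrays under digoxin and in DMSO did not overlap for 3 of 7, against 28.4% of all genes. These were S100a4, which was lower, and S100a1 and S100a9, which were higher.

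The digoxin effect was then compared between the genotypes. The difference between the digoxin effects, deficient minus wildtype, was 0.11 ± 0.24 for S100a4, which read lower with digoxin in both genotypes. For S100a6 it was -0.39 ± 0.20, from 0.32 in wildtype and -0.07 in deficient cells. Without the first wildtype digoxin array these differences between effects were -0.10 for S100a4 and -0.20 for S100a6, and without the second 0.33 and -0.58. No gene was called for this difference (0% of 18193 genes), and 3.09% had an unadjusted p under 0.05, but 0 of the members added by family name. The arrays of wildtype cells and of deficient cells in DMSO took part in choosing S100a4 and S100a6, so no p is given for them.

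**Figure D3:**
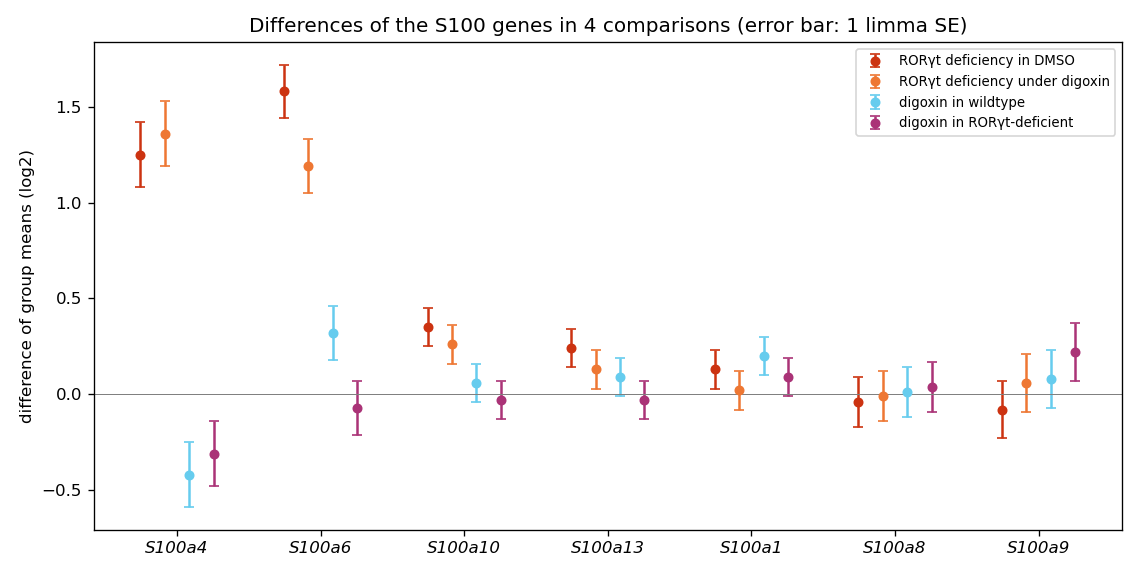
Difference of group means on the log2 scale (y axis) for the 7 measured S100 genes (x axis) in 4 comparisons. Points are differences and bars are 1 limma standard error. Both genotype differences of S100a4 and S100a6 exceed 1, and the digoxin differences run from -0.42 to 0.32.

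S100a10, the annexin A2 partner, was measured by 3 probe sets, all with a lowest signal of 8 or above. In wildtype cells the first read -0.02 and 0.02 with DMSO and 0.06 and 0.05 with digoxin. In deficient cells it read 0.38 and 0.32 in DMSO and 0.38 and 0.27 under digoxin. Deficient and wildtype arrays did not overlap, and arrays of deficient cells overlapped between the treatments.

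The genotype difference of S100a10 was 0.35 ± 0.10 in DMSO, or 1.28-fold, and 0.26 ± 0.10 under digoxin, or 1.2-fold (limma unadjusted p = 0.0263, adjusted p = 0.853). The other probe sets gave 0.40 ± 0.11 and 0.32 ± 0.12 in DMSO and 0.20 ± 0.11 and 0.16 ± 0.12 under digoxin. All 3 probe sets thus put the deficient group mean above the wildtype mean in both treatments. Digoxin differences of the first probe set were 0.06 ± 0.10 in wildtype cells and -0.03 ± 0.10 in deficient cells. The other 2 probe sets read lower in deficient cells under digoxin, by -0.16 ± 0.11 and -0.20 ± 0.12.

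S100a13 had smaller values in the same order. Wildtype arrays read 0.04 and -0.04 with DMSO and 0.05 and 0.12 with digoxin. Deficient arrays read 0.26 and 0.22 with DMSO and 0.26 and 0.17 with digoxin. Every deficient array lay above every wildtype array. The genotype difference was 0.24 ± 0.10 in DMSO and 0.13 ± 0.10 under digoxin (limma adjusted p = 0.978). Its lowest signal was at 8 or above.

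S100a1 read higher in each of the other 3 groups than in wildtype DMSO, by small amounts. On its first probe set, wildtype cells read -0.01 and 0.01 with DMSO and 0.18 and 0.21 with digoxin. Deficient cells read 0.13 and 0.14 with DMSO and 0.19 and 0.25 with digoxin. Digoxin minus DMSO was 0.20 ± 0.10 in wildtype cells and 0.09 ± 0.10 in deficient cells. The genotype difference was 0.13 ± 0.10 in DMSO and 0.02 ± 0.10 under digoxin (limma adjusted p = 0.996). A second S100a1 probe set gave 0.20 ± 0.12 for digoxin in wildtype cells and 0.18 ± 0.12 for genotype in DMSO. Its lowest signal lay between 4 and 8.

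With digoxin in wildtype cells, limma called 0.121% of all genes, 13 higher and 9 lower, a split that became 0 higher and 4 lower after quantile normalisation. The digoxin arrays lay wholly above the DMSO arrays for 4 of 7 S100 genes, S100a6, S100a10, S100a13 and S100a1, against 19.6% of all genes. They lay wholly below for S100a4 alone, against 18.1% of genes. In the direct comparison of deficient cells in DMSO with wildtype cells under digoxin, S100a4, S100a6, S100a10 and S100a13 lay wholly higher, against 13.6% of genes. S100a1 lay wholly lower, against 17% of genes. These counts rest on the contrasts behind the choice of S100a4 and S100a6.

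S100a8 and S100a9, the calprotectin pair, had a lowest signal between 2 and 4, the bottom of the range. In wildtype cells S100a8 read 0.10 and -0.10 with DMSO and -0.14 and 0.16 with digoxin, and in deficient cells -0.01 and -0.08, then 0.08 and -0.08. S100a9 read 0.07 and -0.07 with DMSO and -0.07 and 0.23 with digoxin in wildtype cells. In deficient cells it read -0.25 and 0.10, then 0.12 and 0.17. Groups overlapped for both genes in the genotype comparisons. The genotype differences in DMSO were -0.04 ± 0.13 and -0.08 ± 0.15, and under digoxin -0.01 ± 0.13 and 0.06 ± 0.15, with limma adjusted p of 1 and 0.995.

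Because calprotectin is a neutrophil and monocyte product, markers of those cells were read beside it. Of 14 measured markers, 5 had a lowest signal between 2 and 4, 9 between 4 and 8 and 0 at 8 or above, and limma called 0 between the genotypes in DMSO (2 at an unadjusted p under 0.05) and 0 under digoxin (0 at an unadjusted p under 0.05). Their mean ran from -0.02 to 0.02 in wildtype DMSO, 0.07 to 0.26 in wildtype digoxin, 0.07 to 0.15 in deficient DMSO and 0.12 to 0.30 in deficient digoxin. Cxcr2, a neutrophil chemokine receptor, differed by 0.60 ± 0.14 between the genotypes in DMSO (limma adjusted p = 0.0953). Fcgr3, the next by size, went the other way at -0.29 ± 0.12, and Csf1r differed by 0.00 ± 0.13. The part of such cells in the S100 values was not tested. In bulk RNA, fewer cells of a type and less RNA per cell cannot be told apart.

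Across the 8 arrays, S100a4, S100a6, S100a10 and S100a13 varied together. Pearson correlations were 0.87 between S100a4 and S100a6, 0.98 between S100a10 and S100a6, 0.92 between S100a10 and S100a4 and 0.94 between S100a13 and S100a10. S100a8 and S100a9 correlated with S100a4 and S100a6 at values from -0.19 to -0.01, and with each other at 0.44. These are descriptions over 8 arrays that share the genotype split and the centring on wildtype DMSO.

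No call was made in the wider family. Of 10 other genes, S100 genes and 1 S100-binding protein, 7 were measured and 0 were called by limma in any comparison, with 0 at an unadjusted p under 0.05 for genotype in DMSO and 1 under digoxin. Their median genotype difference was 0.08 in DMSO and 0.03 under digoxin, beside 0.24 and 0.13 over the 7 measured members. Those 7 include S100a4 and S100a6, which were chosen by their values. The members added by family name ran from -0.08 to 0.35 in DMSO and from -0.01 to 0.26 under digoxin. The other family genes ran from -0.07 to 0.26 and from -0.15 to 0.56. Lists outside the family reached like medians in DMSO, 0.26 for naive T cell genes, 0.24 for CD8 T cell and NK markers and 0.16 for CD4 T cell genes, with 0.12, 0.08 and 0.10 under digoxin. S100a3 had the highest values of that list, 0.26 ± 0.22 in DMSO and 0.56 ± 0.22 under digoxin, at a lowest signal between 2 and 4. S100b, known from glia, read 0.31 ± 0.17 under digoxin.

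Intracellular S100 partners were measured for 14 of 15 listed genes, the annexins among them. Limma called 0 of them between the genotypes in DMSO, where 3 had an unadjusted p under 0.05, and 0 under digoxin, where 1 did. Their median genotype difference was -0.04 in DMSO and 0.10 under digoxin. Ahnak, the giant scaffold that binds the S100A10 and annexin A2 complex, read 0.39 ± 0.13 in DMSO and 0.29 ± 0.13 under digoxin. Hltf, a DNA translocase, read -0.45 ± 0.12 and -0.26 ± 0.12. Anxa2 itself, the partner of S100A10, read 0.19 ± 0.13 in DMSO, at a lowest signal between 2 and 4.

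Receptors for released S100 proteins and their adaptors were measured for 13 of 13 listed genes. None was called by limma between the genotypes in DMSO (1 at an unadjusted p under 0.05) or under digoxin (1), and the median difference was 0.05 and 0.07. Ager, which encodes RAGE, read 0.34 ± 0.13 in DMSO. Ly96, the TLR4 co-receptor, read -0.39 ± 0.13 under digoxin.

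S100a4, S100a6 and S100a10 are often listed among genes of effector and memory T cells, so such genes were read beside them. Of 18 listed genes 17 were measured, and limma called 0 for genotype in DMSO (4 at an unadjusted p under 0.05) and 0 under digoxin (2). Their mean ran from -0.03 to 0.03 in wildtype DMSO, 0.05 to 0.08 in wildtype digoxin, 0.10 to 0.16 in deficient DMSO and 0.13 to 0.18 in deficient digoxin. Lgals3, a galectin, differed by 0.50 ± 0.12 in DMSO and Cxcr3, a chemokine receptor, by 0.47 ± 0.11 (limma adjusted p = 0.0959 and 0.0934). Of 10 measured genes of naive T cells, Igfbp4 (0.65 ± 0.11) and Ccr7 (0.58 ± 0.10), a lymph node homing receptor, were called higher in deficient cells in DMSO (limma adjusted p = 0.0246 and 0.0255). The calls held in 8 and 9 of 17 alternatives, and were lost without any 1 array of the DMSO groups or of the deficient digoxin group. Igfbp4 read 0.34 with the mean of its probe sets. Under digoxin 0 were called, with 0 at an unadjusted p under 0.05. The naive list's mean was 0.14 in wildtype digoxin, 0.23 to 0.29 in deficient DMSO and 0.25 to 0.26 in deficient digoxin. The part of effector or naive cell content in the S100 values was not tested.

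The members lie in a gene-dense stretch of chromosome 3, and the measured genes around them were read in RefSeq order. S100a5 lies between S100a4 and S100a6 and read -0.04 ± 0.12 for genotype in DMSO and 0.03 ± 0.12 under digoxin. Its lowest signal lay between 2 and 4. S100a3, the neighbour on the other side of S100a4, is described above. Of 72 measured neighbours that are not members, limma called 0 between the genotypes in DMSO (2 at an unadjusted p under 0.05) and 0 under digoxin (2). Their differences ran from -0.41 to 0.46 in DMSO, with a median of 0.01, and from -0.26 to 0.56 under digoxin, with a median of 0.03. Of the neighbours lying between the members, Sprr1a alone had a lowest signal of 8 or above. Little can be read from a lack of calls where signals are low, and an effect of flanking DNA was not tested. Over 913 measured genes of the chromosome, 7 were called higher and 7 lower in DMSO, where 1.05% of all genes were called. Of the 913, 98 had an unadjusted p under 0.05 in DMSO and 55 under digoxin. The chromosome counts include S100a4 and S100a6, which were chosen on the contrast in DMSO. All calls of this contrast fell to 1 and 2 after quantile normalisation.

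**Figure D4:**
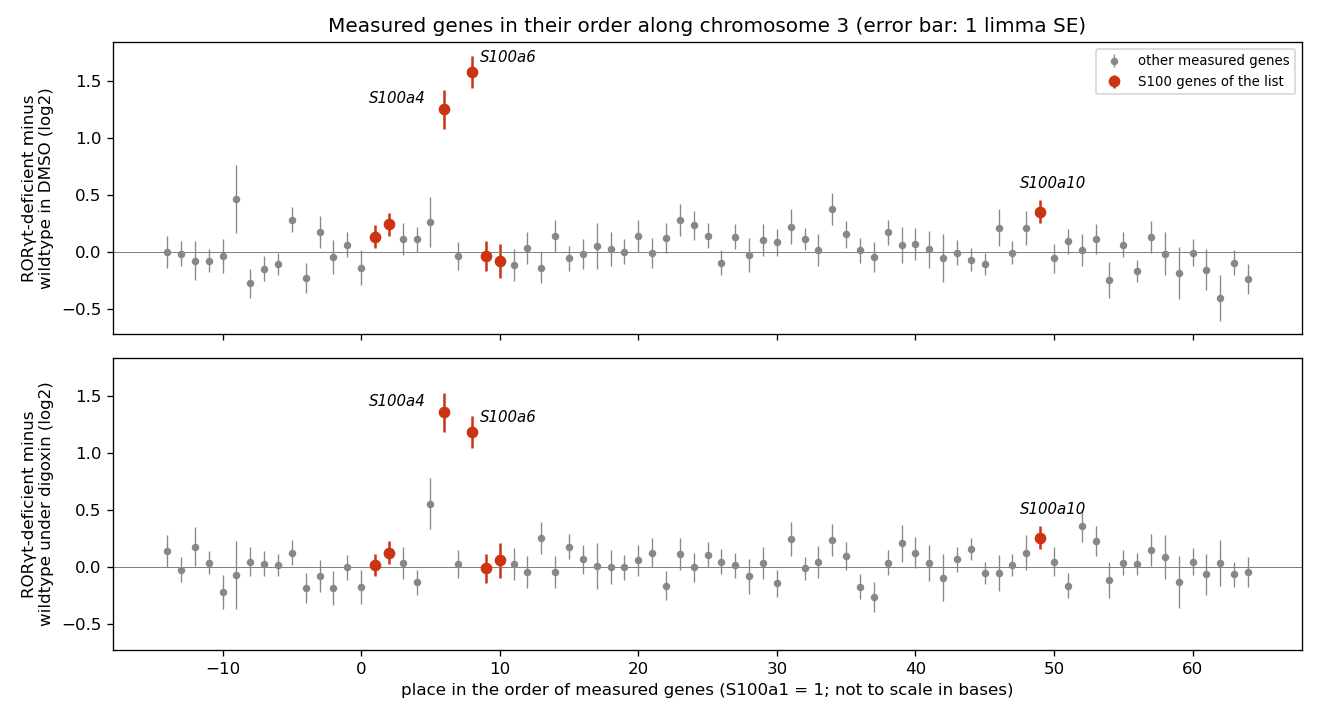
RORγt-deficient minus wildtype difference (y axis, log2) of measured genes in their order on chromosome 3 (x axis), in DMSO (top) and under digoxin (bottom). Red points are S100 genes of the list, grey points their neighbours, and bars are 1 limma standard error. S100a4 and S100a6 stand above 1 in both panels, and no neighbour exceeds 0.56. Of the neighbours lying between the members, Sprr1a alone has a lowest signal of 8 or above.

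To find the genes most like S100a4 and S100a6, Pearson correlation over the 8 arrays was ranked among 831 genes whose group means spanned at least 0.5 on the log2 scale. The 5 nearest to S100a4 were Zmat3 (0.949), Phlda3 (0.947), Got1l1 (0.941), Psrc1 (0.935) and Tnfsf8 (0.935). Zmat3 group means were -0.17 in wildtype digoxin, 0.52 in deficient DMSO and 0.40 in deficient digoxin. Those of Tnfsf8, the CD30 ligand, were 0.08, 0.79 and 0.51 in the same order, so its wildtype digoxin mean lay above 0 where that of S100a4 was -0.42.

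The 5 nearest to S100a6 were Ier5 (0.977), Pvt1 (0.976), Ephx1 (0.970), Penk (0.968) and Perp (0.967). Ier5, an immediate early gene, had group means of 0.24 in wildtype digoxin, 0.66 in deficient DMSO and 0.64 in deficient digoxin. Ephx1, an epoxide hydrolase, had -0.01, 0.60 and 0.61. None of these genes spanned as much as S100a6, whose means were 0.32, 1.58 and 1.51. The correlations are descriptions over 8 arrays that share the genotype split.

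**Figure D5:**
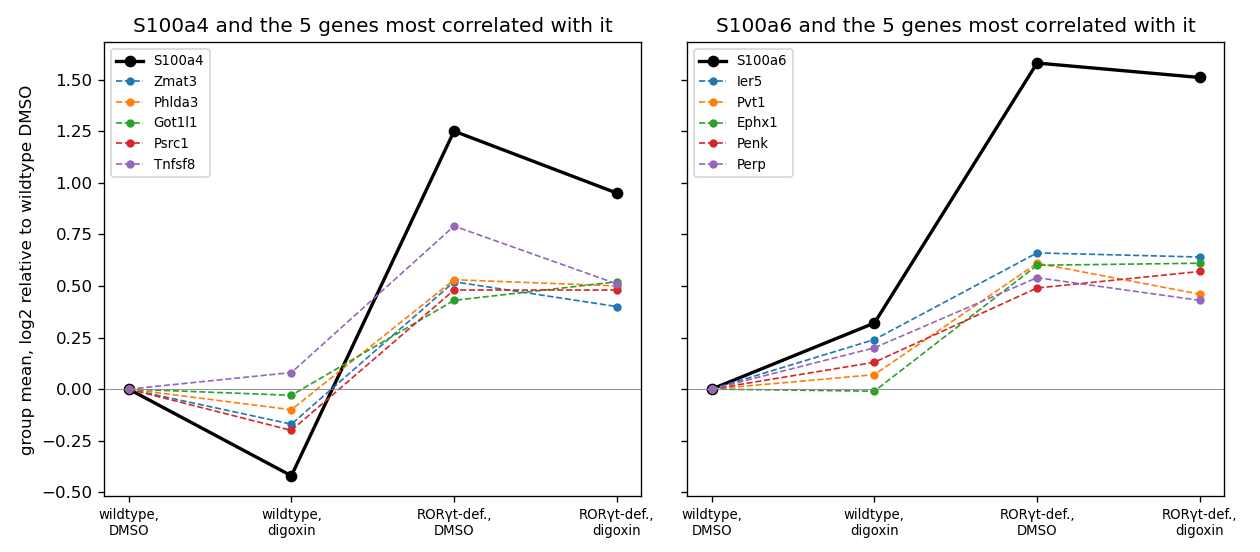
Group means on the log2 scale relative to wildtype DMSO (y axis) in the 4 groups (x axis) for S100a4 and its 5 most correlated genes (left) and S100a6 and its 5 (right). Each point is the mean of 2 arrays. The S100 genes reach 1.25 and 1.58 in deficient DMSO, and the other genes stay at or under 0.79.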

How the data were processed

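Total RNA of 8 samples was hybridised to 8 arrays, 2 for each of 4 groups taken from the sample titles. The authors deposited log2 values made with RMA, per the submitters' processing notes, and the design text names GeneSpring. RMA corrects the background and normalises arrays to a common distribution, so a shift shared by most genes is removed. In the deposited values the 2 wildtype DMSO arrays of every probe set sum to 0 within 1e-06, so absolute signals are lost. The range of the lowest signal was read from the binary rounding of the numbers. On 2000 simulated probe sets this reading was right for 98.4%.

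Of 45101 probe sets, 34945 carried 1 gene symbol in the platform annotation and were used (932 had several, 9211 none), and 34741 matched RefSeq symbols. Each of 18193 genes was taken from 1 probe set, by suffix order (_at, _a_at, _s_at, _x_at) and identifier. Differences of 4 group means were fitted with limma 3.58.1 in R 4.3.3 (residual degrees of freedom 4, prior 5.8), a script that was tested on simulated data. P-values were two-sided and adjusted by Benjamini-Hochberg over all genes, and a gene was called at an adjusted p under 0.05. An array number of 2 per group limits the precision, and the median limma SD was 0.13. Folds are 2 to the log2 difference. No p-value is given where a comparison chose the genes, nor for S100a4 and S100a6 in the digoxin comparisons that share arrays with that choice. Their genotype difference under digoxin shares the wildtype digoxin arrays with it, and its p-values are descriptions.

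The members and lists were chosen with earlier results of these data known. Named genes were all members, list genes that were called or, where none was, up to 2 by size, the 5 most correlated genes for each of S100a4 and S100a6, and the neighbours on the chromosome. Anxa2, Csf1r, S100a5 and further values beyond that rule were added for their known role or position. Promoter windows came from RefSeq. The RORγt gene itself was not analysed here. Alternatives were quantile normalisation of the centred values, median centring, other probe set rules, robust eBayes and array weights. Further ones were a filter on low signals, the compared groups alone, a replicate block and leaving out each array.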

Additional observations from a re-analysis of the deposited data

How the results depend on the processing

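Over 9 other settings and 8 left-out arrays, both genotype differences of S100a4, S100a6, S100a10 and S100a13 kept their direction. The count of S100 genes called under digoxin was 0 and became 1 with the mean of all probe sets of a gene, with the replicate block and without the first wildtype digoxin array (range 0 to 1). The gene was S100a6, at 1.19 (limma adjusted p = 0.0364), 1.19 (0.0316) and 1.39. These are descriptions, since the wildtype digoxin arrays took part in choosing S100a6. Leaving out single arrays moved it from 1.00 to 1.39 and S100a4 from 1.15 to 1.58. Quantile normalisation lowered S100a4 and S100a6 to 1.05 and 1.21 in DMSO, and S100a6 to 0.91 in deficient DMSO against wildtype digoxin. It turned S100a1 to -0.03 and S100a8 to 0.02 under digoxin. With it, genes called in DMSO between the genotypes went from 51 higher and 140 lower to 1 and 2, and with the compared groups alone to 24 and 71. For digoxin in wildtype cells, 13 higher and 9 lower became 0 and 4 with quantile normalisation, 5 and 4 with the compared groups alone, 27 and 13 with the mean of all probe sets (83 and 166 for genotype in DMSO) and 19 and 16 with array weights. Without single arrays, the genotype counts in DMSO ran from 9 to 47 higher and from 8 to 141 lower, fewest of both without the second wildtype DMSO array, and digoxin counts in wildtype cells from 2 to 11 and from 4 to 12. The cause was not tested. Without single arrays, digoxin in wildtype cells ran from -0.63 to -0.20 for S100a4 and from 0.12 to 0.51 for S100a6, and deficient DMSO against wildtype digoxin from 1.46 to 1.88 and from 1.07 to 1.46. Small differences changed sign: under digoxin between the genotypes S100a1 (-0.01 to 0.05), S100a8 (-0.16 to 0.14) and S100a9 (-0.08 to 0.21). For digoxin in deficient cells they were S100a6 (-0.16 to 0.02), S100a10 (-0.08 to 0.02), S100a13 (-0.07 to 0.02) and S100a8 (-0.04 to 0.12). For the difference between the digoxin effects they were S100a4 (-0.10 to 0.33), S100a8 (-0.12 to 0.19) and S100a9 (-0.04 to 0.32). S100a8 and S100a9 also changed sign for genotype in DMSO (-0.14 to 0.06, -0.25 to 0.10), digoxin in wildtype cells (-0.14 to 0.16, -0.07 to 0.23) and deficient DMSO against wildtype digoxin (-0.20 to 0.10, -0.33 to 0.02). With the compared groups alone the difference between the digoxin effects has no value. Replicate numbers were not shown to pair the arrays: deviations of replicate 1 of wildtype DMSO correlated with those of the other groups at -0.24, -0.19 and -0.14, and the other pairs of groups at 0.32 to 0.45. In the comparisons for which S100 calls are given, the replicate block changed no other call of an S100 gene.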
